A study of Mus musculus with 8 samples.

Results

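The 3 red cell miRNAs of mouse footpad skin, mmu-miR-451a, mmu-miR-144-3p and mmu-miR-486a-5p, were followed in Dicer conditional knockout (cKO) and wild-type (WT) embryos. They are 3 of the 1881 mouse miRNAs on the array. They were chosen by name, with all 6 probes that carry those names, and the species prefix is left out below where it is not needed. RNA came from footpad skin, the site where mouse sweat glands form. E stands for embryonic day. The groups were Dicer cKO at E17.5, WT at E17.5, Dicer cKO at E16.5 and WT at E16.5, all on a C57BL6 background. Each group had 2 single-colour arrays, and each array held RNA pooled from several embryos. The labels do not say which Cre drove the deletion or in which cells Dicer was lost, so it is not known whether red cells lost Dicer. The p-values rest on the spread between pools rather than between embryos, and 2 arrays a group limit their precision.

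Most miRNAs are cut from a hairpin precursor by Dicer. miR-451a is the known exception in vertebrates, as the stem of its precursor is too short for Dicer. miR-451a is instead cut by Argonaute2 itself, then trimmed to its mature length. miR-144 lies beside it on the same primary transcript, which the erythroid factor GATA1 switches on, and it needs Dicer. miR-486a-5p also needs Dicer and comes from an intron of Ank1, the gene of red cell ankyrin. It is abundant in red cells and is also made in muscle. In a whole tissue miR-451a and miR-144 are read as markers of the blood in its vessels, and miR-486a-5p of blood or muscle. In bulk tissue, fewer red cells and less of a miRNA per red cell cannot be told apart.

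The mature sequences and hairpins show what sets miR-451a apart from its neighbour. The table of RefSeq sequences (GRCm38.p6) held 2 of the 3 members, and miR-486a-5p is named only. The mature miRNAs are given 5′ to 3′ with the seed, bases 2 to 8, in capitals.
miR-451a: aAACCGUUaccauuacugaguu
miR-144-3p: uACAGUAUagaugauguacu
The seeds differ, and 0 other mature miRNAs among 1679 names in the table share either one. In the hairpins the mature miRNA is in capitals. They are printed as annotated, and their lengths are not those of the precursors that Dicer or Argonaute2 cuts.
Mir451a: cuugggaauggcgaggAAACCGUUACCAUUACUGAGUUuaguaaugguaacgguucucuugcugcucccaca
Mir144: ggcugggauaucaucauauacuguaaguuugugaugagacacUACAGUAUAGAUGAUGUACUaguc
Mir144 occupies chr11:78073005-78073070 and Mir451a chr11:78073170-78073241, both on the plus strand, with 99 bases between them. In the fold predicted by RNAfold, the 22 bases of miR-451a run from position 17 to 38 of a hairpin of 72 nt. They go up the 5′ arm and through the whole terminal loop of 4 nt, so the loop itself is mature sequence. The 20 bases of miR-144-3p run from position 43 to 62 of a hairpin of 66 nt, wholly in the 3′ arm and past a loop of 6 nt. Of these bases 17 in miR-451a and 19 in miR-144-3p were paired in the prediction.

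Each member has a pair of probes on the array, of which the longer has 1 more base at its 3′ end, here in capitals. They are shown because the levels below rest on them.
miR-451a, shorter: aactcagtaatggtaacggtt
miR-451a, longer: aactcagtaatggtaacggttT
miR-144-3p, shorter: agtacatcatctatactgt
miR-144-3p, longer: agtacatcatctatactgtA
miR-486a-5p, shorter: ctcggggcagctc
miR-486a-5p, longer: ctcggggcagctcA
The longer probes of miR-451a and miR-144-3p are the full reverse complement of the mature miRNA, and the shorter ones leave out its first base. The miR-486a-5p probes have only 13 and 14 bases, and their match to the mature miRNA was not tested. The design places the longer probes, on mm9, at chr11:77886689-77886709 for miR-451a, chr11:77886550-77886568 for miR-144-3p and chr8:24253067-24253080 for miR-486a-5p. It lists the miR-486a-5p probes also under miR-3107-5p, an older name of miR-486b-5p, so the 486a and 486b products were not told apart. Whether these probes separate a mature miRNA from its precursor was not tested.

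Between 279 and 384 miRNAs were detected per array, a miRNA being detected where over 50% of a probe's spots were well above background. Replicate arrays correlated at r = 0.997 to 0.999 across the 261 miRNAs detected on all 8 arrays (not independent points). All 4 groups were on 1 slide, each in its own slide column, so that group and column cannot be told apart. As a check of the tissue, all 11 miRNAs listed for skin epithelium were detected on all 4 WT arrays. In cKO all 11 fell, against 14.5% of all tested miRNAs (list median −2.19 on the log2 scale over both stages, 0.17 over all tested miRNAs). A fall has only a bound where both cKO arrays of a stage were not well above background, as for miR-183-5p (at least 2.58-fold lower at E16.5) and miR-203-5p (at least 3.26-fold). All 3 red cell miRNAs were detected on all 8 arrays.

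Signals are given first as background-subtracted intensity, in arbitrary units and with no scaling between arrays. mmu-miR-451a was bright on every array, with 1627 and 1335 units in E17.5 cKO, 1665 and 2096 in E17.5 WT, 1097 and 1048 in E16.5 cKO and 1419 and 659 in E16.5 WT. The E16.5 WT pair was the widest, with the second array lowest of all 8. mmu-miR-144-3p gave 96.8 and 81.2 units in E17.5 cKO, 122 and 166 in E17.5 WT, 61.2 and 65.3 in E16.5 cKO and 119.5 and 56.0 in E16.5 WT. It was again lowest on the second E16.5 WT array and highest on the second E17.5 WT array, as miR-451a was. mmu-miR-486a-5p gave 51.8 and 41.0 units in E17.5 cKO, 52.7 and 50.5 in E17.5 WT, 40.1 and 40.0 in E16.5 cKO and 45.6 and 27.6 in E16.5 WT. Its signal was nearest to background, and its shorter probe was detected on 7 of 8 arrays, with 6 of 15 spots above background on the second E16.5 WT array. Levels of different miRNAs are not set against each other, since each probe has its own response.

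For comparison between arrays each signal was divided by its array's 75th percentile, taken over the 474 probes detected on all 8 arrays, and put on the log2 scale. On this scale miR-451a was at 2.00 and 1.83 in E17.5 cKO, 1.73 and 2.01 in E17.5 WT, 1.93 and 1.86 in E16.5 cKO and 1.84 and 1.21 in E16.5 WT. The genotypes overlapped at E17.5 and not at E16.5, where the lower cKO array lay just above the higher WT array. miR-144-3p was at −2.07 and −2.21 in E17.5 cKO, −2.05 and −1.65 in E17.5 WT, −2.23 and −2.14 in E16.5 cKO and −1.73 and −2.34 in E16.5 WT. Here both cKO arrays lay under both WT arrays at E17.5, and the groups overlapped at E16.5. miR-486a-5p was at −2.98 and −3.20 in E17.5 cKO, −3.25 and −3.37 in E17.5 WT, −2.84 and −2.85 in E16.5 cKO and −3.12 and −3.36 in E16.5 WT. It was higher in cKO at each stage with no overlap between the groups. With 2 arrays a group such separations were common: cKO lay above WT without overlap in 55.3% of tested miRNAs at E17.5 and 56.1% at E16.5, and below WT in 18.4% at E17.5 and 19.2% at E16.5.

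**Figure D1:**
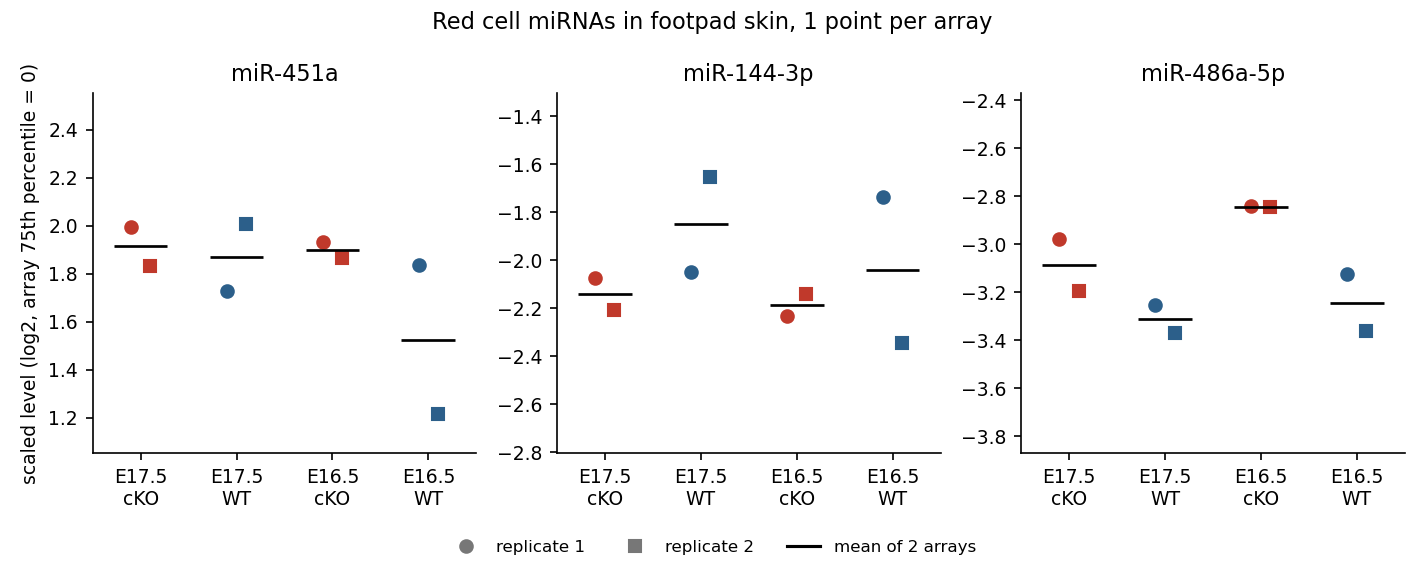
Scaled level of each red cell miRNA on each array (log2, array 75th percentile = 0), with circles for replicate 1, squares for replicate 2, red for cKO, blue for WT and a bar at the mean of 2 arrays. The axes span the same range in each panel but start at different levels. miR-451a and miR-144-3p were widest apart in the E16.5 WT pair, and miR-486a-5p was higher in cKO at both stages.

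The comparison of cKO with WT asked whether these miRNAs differed in abundance with the knockout. It also asked whether the miRNA made without Dicer differed from the others. Over both stages, miR-486a-5p, which serves red cell maturation, averaged −2.97 ± 0.166 in cKO and −3.28 ± 0.115 in WT (SD, n = 4 arrays each). With this scaling it rose by 0.31 ± 0.0782 on the log2 scale (SE, limma adjusted p = 0.0206), but it was at −0.17 when arrays were scaled on the positive control probes. miR-451a averaged 1.91 ± 0.0735 in cKO and 1.70 ± 0.342 in WT and did not pass the test (0.21 ± 0.157, limma adjusted p = 0.302, 95% interval −0.19 to 0.61). miR-144-3p averaged −2.16 ± 0.0713 in cKO and −1.94 ± 0.315 in WT and did not pass either (−0.22 ± 0.166, limma adjusted p = 0.306, 95% interval −0.64 to 0.21). For both, the interval holds differences in either direction. So 1 of 3 members passed, where 60.5% of the 385 tested miRNAs did (46.0% higher and 14.5% lower in cKO).

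Single arrays changed these calls. The miR-486a-5p call was lost without the first E16.5 cKO array (0.31, limma adjusted p = 0.0639), the second E16.5 cKO array (0.31, adjusted p = 0.0562), the first E17.5 cKO array (0.26, adjusted p = 0.0543) or the second E17.5 WT array (0.28, adjusted p = 0.0710). miR-451a was at 0.37 and passed without the first E16.5 WT array (limma adjusted p = 0.0334). The pair of probes of each member gave like differences: 0.21 and 0.25 for miR-451a, −0.22 and −0.25 for miR-144-3p and 0.31 and 0.28 for miR-486a-5p, with the longer probe first.

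At E17.5, where 46.2% of tested miRNAs passed, 0 of the 3 did. The differences were 0.05 ± 0.222 for miR-451a (limma adjusted p = 0.944), −0.29 ± 0.235 for miR-144-3p (adjusted p = 0.387) and 0.22 ± 0.111 for miR-486a-5p (adjusted p = 0.168). At an unadjusted limma p under 0.05 the number was also 0, against 203 of the 385 tested miRNAs. At E16.5, where 50.9% passed, miR-486a-5p was again the member that did, at 0.40 ± 0.111 (limma adjusted p = 0.0359). Its call was lost when only E16.5 arrays were fitted (0.40, adjusted p = 0.0907). It was also lost without the first (0.40) or second (0.40) E16.5 cKO array, the second E16.5 WT array (0.28) or either E17.5 WT array (0.40 each), with limma adjusted p from 0.0625 to 0.126. miR-451a was at 0.37 ± 0.222 (limma adjusted p = 0.209) and at 0.68 without the first E16.5 WT array (adjusted p = 0.0315). miR-144-3p was at −0.15 ± 0.235 (limma adjusted p = 0.636).

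The size of the genotype difference was not shown to differ between stages for any member. The interaction was −0.33 ± 0.314 for miR-451a (limma adjusted p = 0.513), −0.14 ± 0.332 for miR-144-3p (adjusted p = 0.776) and −0.18 ± 0.156 for miR-486a-5p (adjusted p = 0.491), and 1.56% of tested miRNAs passed. Nor did any member pass between stages. In cKO, E17.5 minus E16.5 was 0.02 for miR-451a (limma adjusted p = 1), 0.05 for miR-144-3p (adjusted p = 0.925) and −0.24 for miR-486a-5p (adjusted p = 0.141), against 35.6% of miRNAs that passed. In WT it was 0.34 for miR-451a (limma adjusted p = 0.349), 0.19 for miR-144-3p (adjusted p = 0.659) and −0.07 for miR-486a-5p (adjusted p = 0.749), against 14.8%. No member had an unadjusted limma p under 0.05 in these 3 comparisons. Of the 385 tested miRNAs, 107 had one for the interaction, 191 between stages in cKO and 138 in WT.

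**Figure D2:**
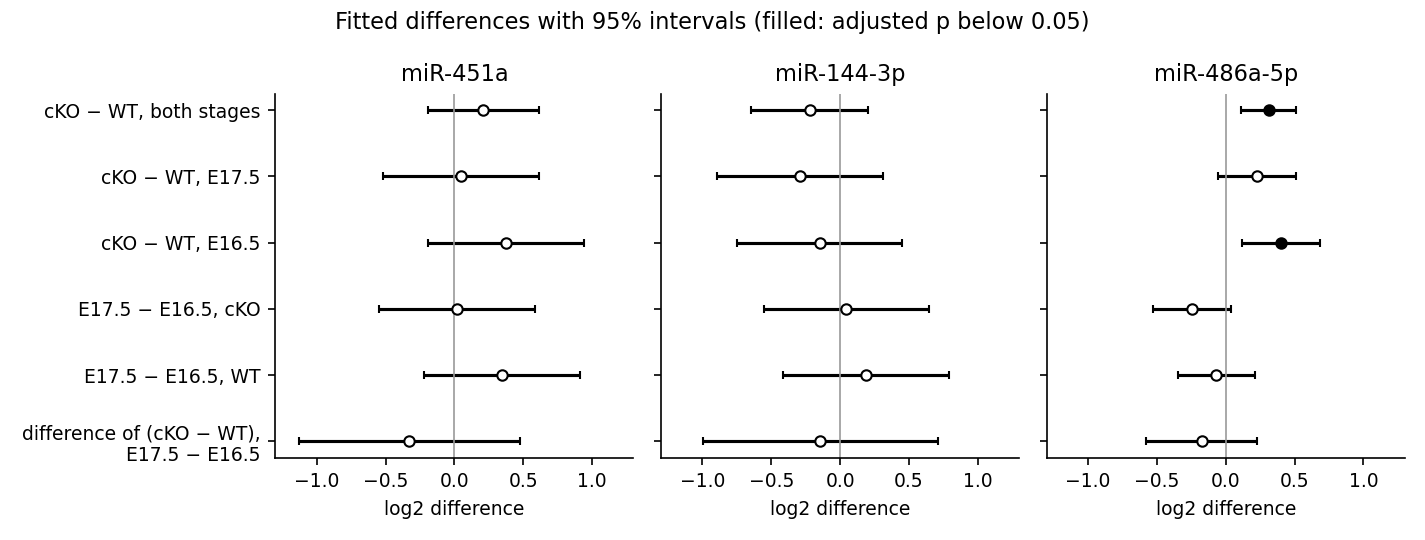
Fitted log2 difference of each red cell miRNA in the 6 comparisons, with 95% intervals from limma, filled where the adjusted p was below 0.05. Only miR-486a-5p over both stages and at E16.5 is filled, and the intervals of miR-451a and miR-144-3p all cross 0.

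A difference between a pair of members on the same array does not depend on how arrays are scaled by a single factor. Its absolute size depends on the probes and carries no meaning, and only its change between arrays does. miR-451a minus miR-144-3p was 4.07 and 4.04 on the log2 scale in E17.5 cKO, 3.77 and 3.66 in E17.5 WT, 4.16 and 4.004 in E16.5 cKO and 3.57 and 3.56 in E16.5 WT. All 4 cKO arrays lay above all 4 WT arrays. The mean was 4.07 ± 0.0689 in cKO and 3.64 ± 0.101 in WT (SD, n = 4 each), a difference of 0.43, so that miR-451a was 1.35-fold higher relative to miR-144-3p in cKO. The two-sided exact permutation test over 70 arrangements gave p = 0.0286, the smallest it can give (adjusted p = 0.0429 over 3 pairs). With permutation within stage the exact p was 0.0556, again the smallest possible (adjusted p = 0.0833). The difference was 0.34 at E17.5 and 0.52 at E16.5, and 0.45 in the slide row of replicate 1 and 0.41 in that of replicate 2. Of the 384 other tested miRNAs set against miR-144-3p on the same array, 14.6% lay above WT in cKO without overlap, miR-451a and miR-486a-5p among them.

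Set against miR-144-3p, miR-486a-5p differed between genotypes in the same direction. Its difference from miR-144-3p was −0.90 and −0.99 in E17.5 cKO, −1.21 and −1.71 in E17.5 WT, −0.61 and −0.71 in E16.5 cKO and −1.39 and −1.02 in E16.5 WT. Again all 4 cKO arrays lay above all 4 WT arrays. The mean was −0.80 ± 0.174 in cKO and −1.33 ± 0.296 in WT (SD, n = 4 each), a difference of 0.53 or 1.45-fold (exact permutation p = 0.0286, adjusted p = 0.0429; within stage exact p = 0.0556, adjusted p = 0.0833). By stage it was 0.52 at E17.5 and 0.55 at E16.5. miR-451a minus miR-486a-5p overlapped between genotypes, from 4.71 to 5.03 in cKO and from 4.58 to 5.38 in WT. Its difference was −0.10 (exact permutation p = 0.629, adjusted p = 0.629). Thus the Dicer-dependent miR-486a-5p and the Dicer-independent miR-451a were each higher relative to miR-144-3p in cKO. A difference between those 2 was not shown. Both results subtract the same miR-144-3p values, so they are not independent. Set against miR-451a, 8.85% of the 384 other tested miRNAs lay below WT in cKO without overlap, miR-144-3p among them, and 0.521% lay above.

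Both separations depended on the background step. With normexp correction and an offset of 50 units, which adds to dim signals relatively more than to bright ones, the genotypes overlapped for miR-451a minus miR-144-3p (0.24, exact permutation p = 0.143) and for miR-486a-5p minus miR-144-3p (0.32, exact permutation p = 0.0857). Scaling by a single factor, the floor and the deposited value table leave these differences as they are, and leaving out an array cannot make separate groups overlap. Of the other alternatives, the miR-451a arrays stayed apart with outlier spots kept (0.44), with quantile scaling (0.38) and with the mean of all probes (0.47), but the last 2 missed the threshold after correction over 3 pairs (exact permutation, adjusted p = 0.0857 each). The miR-486a-5p arrays stayed apart with outlier spots kept (0.54) and overlapped with quantile scaling (0.48) and with the mean of all probes (0.53).

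**Figure D3:**
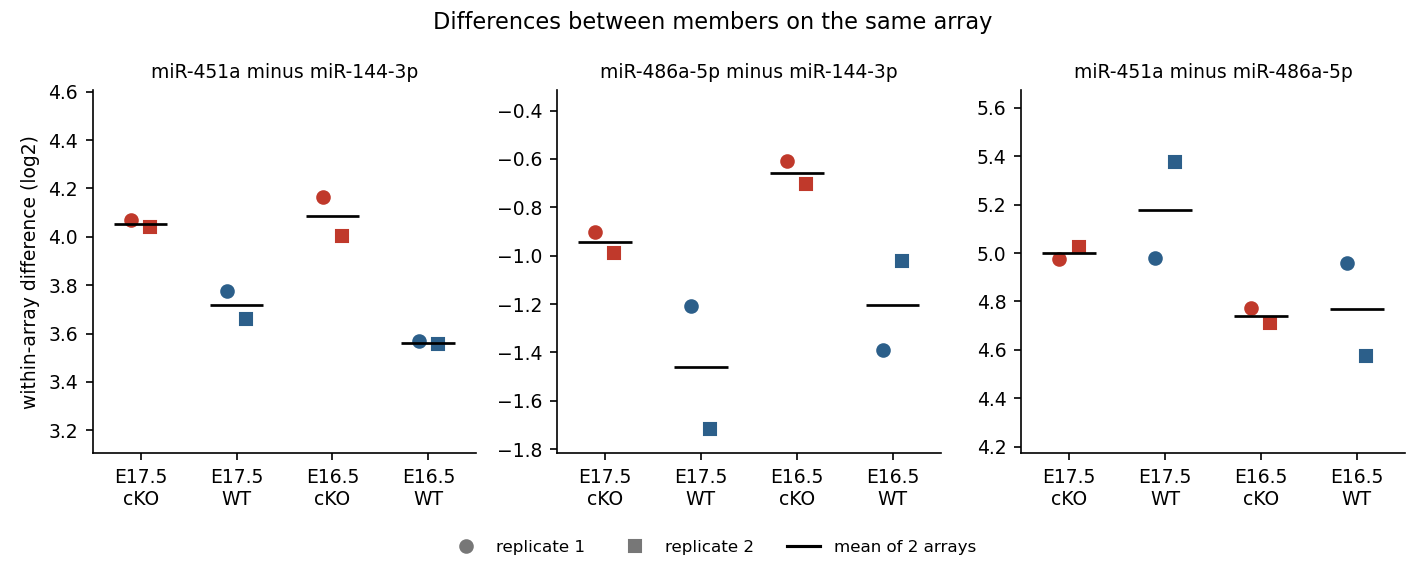
Difference between members on the same array (log2), with circles for replicate 1, squares for replicate 2, red for cKO, blue for WT and a bar at the mean of 2 arrays. miR-451a minus miR-144-3p and miR-486a-5p minus miR-144-3p were higher on all 4 cKO arrays than on all 4 WT arrays, while miR-451a minus miR-486a-5p overlapped.

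Between stages, miR-451a minus miR-486a-5p was higher at E17.5 by 0.33 without overlap (exact permutation p = 0.0286, the smallest possible), but failed the correction over 3 pairs (adjusted p = 0.0857). Of the 384 other tested miRNAs, 8.07% lay higher at E17.5 without overlap when set against miR-486a-5p. miR-451a minus miR-144-3p differed by 0.06 (exact permutation p = 0.686, adjusted p = 0.686) and miR-486a-5p minus miR-144-3p by −0.27 (exact permutation p = 0.343, adjusted p = 0.514).

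The neighbours miR-451a and miR-144-3p moved together between replicate pools where the gaps were wide. Replicate 1 minus replicate 2 in E17.5 cKO was 0.16 for miR-451a and 0.13 for miR-144-3p, and in E17.5 WT −0.28 and −0.39. In E16.5 cKO it was 0.07 for miR-451a and −0.09 for miR-144-3p, and in E16.5 WT 0.62 and 0.61. The pairs with wide gaps, both WT, had them in the same direction and of like size for the 2 miRNAs. The SD of miR-451a was 0.440 in E16.5 WT and 0.198 in E17.5 WT, so the E16.5 WT pair weighs most in the pooled spread. The second array of that pair detected 279 miRNAs, the fewest, against 367 on the first. In E16.5 cKO the second detected 281 and the first 365. The pooled spread within groups was 0.249 for miR-451a and 0.262 for miR-144-3p (SD, 4 degrees of freedom), against 0.0705 for their difference. Among the 260 other miRNAs detected on all 8 arrays, each was the one with the smallest such spread to the other. The median spread of those 260 was 0.253 to miR-451a and 0.271 to miR-144-3p. The next smallest to miR-451a was miR-382-3p at 0.155, then miR-142a-3p, a miRNA of all blood lineages, at 0.164. For miR-144-3p the next were miR-142a-3p at 0.183 and miR-382-3p at 0.185. This measure was chosen after the values were seen, and it is a description with no test.

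miR-486a-5p followed that pair in part. Its replicate gap was 0.22 in E17.5 cKO and 0.24 in E16.5 WT, in the direction of the other two, and 0.0051 in E16.5 cKO. In E17.5 WT it was 0.12, opposite in sign to those of miR-451a and miR-144-3p. Its own spread within groups was smaller, at 0.121. The spread of its difference from miR-451a was 0.197, which put miR-486a-5p at rank 9 of 260 among the partners of miR-451a, but miR-451a at rank 197 among those of miR-486a-5p, whose median was 0.132. The spread of its difference from miR-144-3p was 0.227, at rank 24 from the side of miR-144-3p and rank 228 from that of miR-486a-5p. The smallest spreads to miR-486a-5p were those of miR-342-3p at 0.0424, miR-1a-3p of muscle at 0.0634 and miR-204-5p at 0.0717.

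Likeness over all 8 arrays, taken as the root-mean-square difference of the centred log2 levels, includes the genotype and stage means and gave another order. Nearest to miR-451a were miR-142a-3p at 0.156, miR-15b-5p at 0.180, miR-362-3p, miR-100-5p and miR-674-3p, while miR-486a-5p ranked 56 and miR-144-3p 58 of 260 (0.227 each). Nearest to miR-144-3p were miR-19a-3p at 0.170, miR-21a-5p at 0.180, let-7d-5p, miR-24-3p and miR-19b-3p, with miR-451a at rank 28. Nearest to miR-486a-5p were miR-370-3p at 0.0980, miR-214-5p at 0.105, miR-483-5p, miR-6368 and miR-125b-5p. So miR-451a and miR-144-3p tracked each other within groups, mainly in WT. Their difference separated the genotypes with the main processing, but not with normexp correction.

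The direction of the level changes depended on the scaling, because it moved the median of all tested miRNAs. That median was 0.17 with the main scaling, 0.10 with the array median, 0.11 with quantile scaling, −0.07 with all probes, −0.09 with no scaling and −0.25 with the positive control probes. Over these 6, miR-451a ran from −0.27 to 0.21 and miR-486a-5p from −0.17 to 0.31, each with both signs. miR-144-3p was below 0 throughout, from −0.70 to −0.22, and passed with the positive control probes alone (limma adjusted p = 0.00832). Subtracting that median removes nearly all of a scaling by a single factor, so that like values across the scalings are largely built in. Over both stages miR-451a was then within −0.03 to 0.04 of the median miRNA, but it differed from it by −0.18 to −0.081 at E17.5 and by 0.10 to 0.19 at E16.5. miR-486a-5p differed from the median by 0.07 to 0.15 over both stages, by −0.0019 to 0.098 at E17.5 and by 0.13 to 0.21 at E16.5. miR-144-3p differed from it by −0.46 to −0.35 over both stages, with −0.35 under quantile scaling, by −0.52 to −0.36 at E17.5 and by −0.42 to −0.33 at E16.5. These values carry no test of their own.

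**Figure D4:**
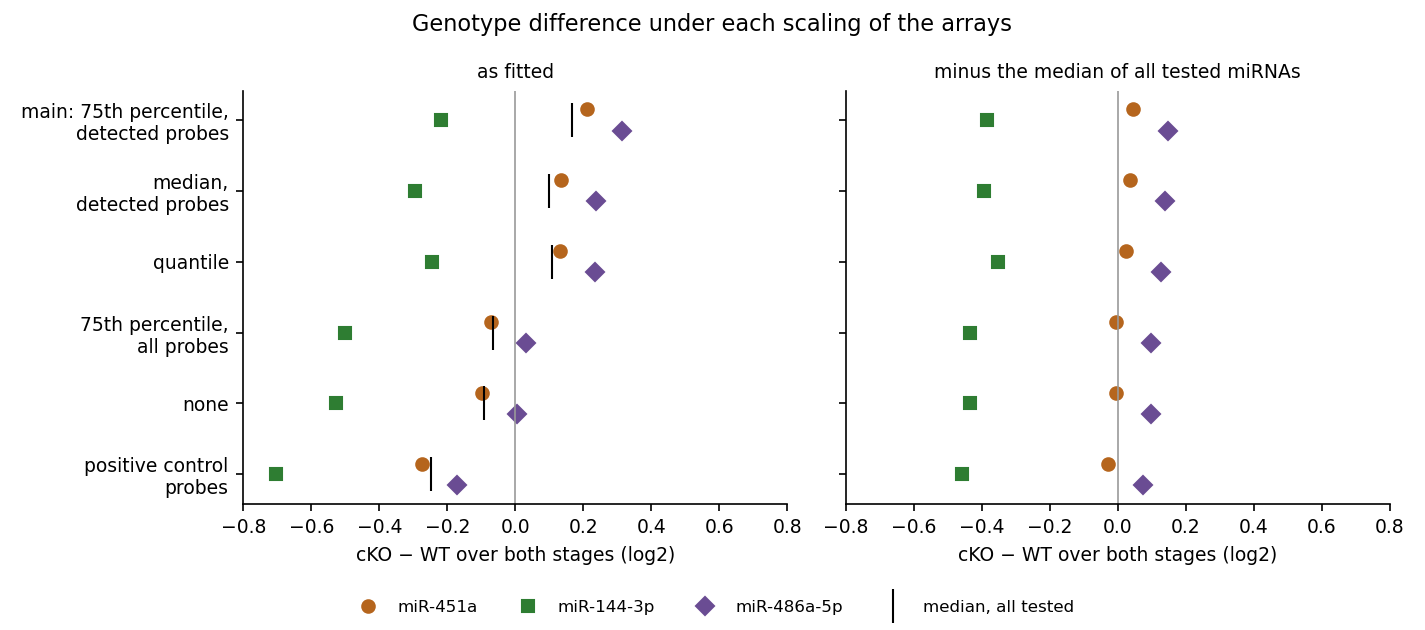
cKO minus WT over both stages (log2) of each red cell miRNA under 6 scalings of the arrays, as fitted on the left, with a black bar at the median of all tested miRNAs, and after subtraction of that median on the right. On the right miR-144-3p stays between −0.46 and −0.35 and miR-451a between −0.03 and 0.04.

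The other products of the member loci were not detected. miR-144-5p, from the opposite arm of the miR-144 hairpin, miR-451b, from the strand opposite the 3′ arm of the Mir451a hairpin, miR-486a-3p and miR-486b-3p were well above background on 0 of 8 arrays, so each has only an upper bound and no fold change. miR-486b-5p has no name of its own on this design.

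miRNAs that are abundant in red cells but made in many tissues did not move one way. Of 7 listed, 6 were tested. miR-16-5p rose by 0.20 (limma adjusted p = 0.00892), while miR-185-5p fell by 0.37 and miR-92a-3p fell by 0.23, and 3 did not pass. Their median was 0.0025, against 0.17 over all tested. In this list 1 member rose under main and quantile scaling and 0 under the other 4, while between 2 and 6 fell under each. Of all 385 tested miRNAs, 177 rose under main and 151 under quantile scaling, and 6 to 129 under the other 4. Between 44 and 256 of them fell. At E16.5 miR-185-5p was detected on 1 of 2 arrays in each genotype, with its cKO mean at −4.15, near the floor of −4.24.

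Other blood and tissue lists give the setting. Of 8 white blood cell miRNAs 5 were tested and 4 rose with the main scaling: miR-342-3p by 1.04, miR-146a-5p, which restrains innate immune signalling, by 0.37, miR-223-3p of myeloid cells by 0.31 and miR-142a-3p by 0.21. At E16.5 miR-146a-5p was detected on 1 of 2 arrays in each genotype. The defining lymphocyte miRNA miR-150-5p, and miR-155-5p and miR-223-5p, were detected on 0 of 8 arrays. The summed linear level of the list was 1.50 to 1.62 in cKO and 0.873 to 1.13 in WT, and miR-342-3p made up most of that gap, with 0.732 to 0.815 in cKO and 0.302 to 0.488 in WT. Both arms of miR-126a, from the endothelial gene Egfl7, rose, miR-126a-5p by 0.55 and miR-126a-3p by 0.34. Their summed level was 2.01 to 2.54 in cKO and 1.56 to 1.91 in WT. At E16.5 miR-126a-5p was detected on 1 of 2 WT arrays. In dermal mesenchyme 4 of 5 rose, among them miR-199a-5p by 0.41, and in muscle, which also makes miR-486a-5p, 3 of 3 rose, among them miR-1a-3p by 0.36. With the main scaling 46.0% of all 385 tested miRNAs rose, so a rise was common outside these lists too. Without scaling, with all probes and with the positive control probes, 0 of these mesenchyme, endothelium or muscle miRNAs rose, and 1 white blood cell miRNA did. With the control probes 4 white blood cell, 2 mesenchyme, 1 endothelium and 1 muscle miRNAs fell. Of all 385 tested miRNAs, 6 rose without scaling, 6 with all probes and 7 with the control probes, where 256 fell. The summed level of the skin epithelium list was 2.85 to 4.32 in cKO and 27.4 to 32.3 in WT. The part of these lists in the levels of the red cell miRNAs was not tested.

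**Figure D5:**
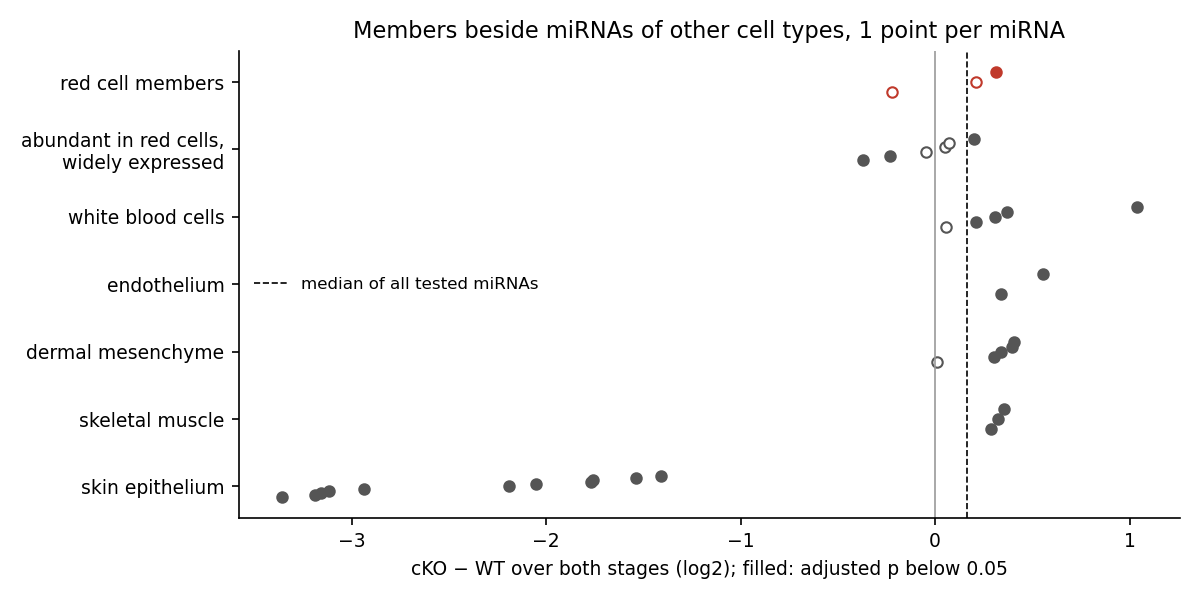
cKO minus WT over both stages (log2, main scaling), with 1 point per miRNA, filled where the limma adjusted p was below 0.05, and a dashed line at the median of all tested miRNAs, 0.17. The red cell miRNAs lie between −0.22 and 0.31, whereas all 11 skin epithelium miRNAs lie at −1.41 or below.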

How the data were processed

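The deposited scanner files hold, per spot, a background-subtracted Cy3 fluorescence intensity in linear arbitrary units from Agilent Feature Extraction 11.5.1.1, per the file headers, with no scaling between arrays. The deposited value table holds the same signal for each probe, within 0.02 in 100% of spots above 0, and served as an alternative. Pools held several embryos, per the labels' protocols.

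Spots of a probe (15 per array) were averaged, without the 2.84% to 6.02% of spots marked as outliers. Saturated spots numbered 0. Each array was divided by its 75th percentile over 474 probes, signals under a floor (−4.24 on the log2 scale, from the 5th percentile of detected probes) were raised to it, and log2 was taken. The probe with the highest mean stood for a miRNA. A miRNA was tested if both arrays of any group detected it, and the 385 that met this were fitted with limma 3.58.1 in R 4.3.3 as 4 group means (lmFit, eBayes with a trend), with Benjamini-Hochberg adjustment per contrast (6 in all) at 0.05, on 4 residual and 1.08 prior degrees of freedom. Differences between members on an array went into two-sided exact permutation tests over 70 arrangements, or 36 within stage. The fit was run on simulated data with planted differences larger than those of the members, so it was not tried at their size.

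The members and lists were chosen with earlier results of these data known. Named were the members, at most 4 tested miRNAs per list (largest change past the threshold, then first listed) and the 5 nearest patterns of each member. The spread to other miRNAs within groups was added later. Folding used RNAfold 2.7.2. Alternatives were 5 other scalings, normexp background, the value table, the floor, probe averaging, filters, outlier spots, the variance model, the replicate number, single stages and each array left out. Replicate number goes with the slide row. Same-numbered arrays of different groups had deviations correlated at −0.14 to 0.28, so the numbers are not shown to pair samples.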

Additional observations from a re-analysis of the deposited data

How the results depend on the processing

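Values are log2 differences of miR-451a, miR-144-3p and miR-486a-5p. With every array kept, 284 values held their direction and side of the threshold, 23 turned, 16 lost the call and 7 gained it. The cause was not tested. Many of the 284 were fixed in advance, since scaling by a single factor, the floor and the value table cannot change the within-array differences. The value table also repeats the main fit, so the 284 does not measure robustness. For cKO minus WT over both stages, control-probe scaling gave −0.70 for miR-144-3p (limma adjusted p = 0.00832), −0.27 for miR-451a and −0.17 for miR-486a-5p. miR-451a was at −0.070 with all probes and −0.097 unscaled. miR-486a-5p missed the threshold at 0.032 with all probes, 0.0058 unscaled and 0.24 with quantile scaling. At E17.5, control-probe scaling gave −0.60 for miR-451a (limma adjusted p = 0.0377), −0.94 for miR-144-3p (adjusted p = 0.00898) and −0.42 for miR-486a-5p (adjusted p = 0.0202). There miR-451a was at −0.28 with all probes, −0.34 unscaled, −0.091 with median and −0.037 with quantile scaling, and miR-486a-5p at −0.11 with all probes, −0.16 unscaled and 0.25 with normexp, where it passed. At E16.5 miR-486a-5p missed the threshold at 0.17 with all probes, 0.18 unscaled, 0.29 with quantile scaling, 0.076 with control probes and 0.40 with the E16.5 arrays alone. For E17.5 minus E16.5 in cKO, miR-486a-5p was at 0.030 with all probes, 0.20 unscaled and −0.29 with normexp (passing), and miR-144-3p at −0.10 with normexp. In WT, miR-486a-5p was at 0.31 with all probes, 0.54 unscaled, 0.045 with median, 0.028 with quantile and 0.34 with control-probe scaling, and −0.31 with normexp (passing). There miR-451a passed at 0.75 with control probes and 0.37 with normexp, and miR-144-3p was at −0.037 with normexp. The interaction of miR-486a-5p was 0.015 with normexp.

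Within arrays, the adjusted p was missed for miR-451a minus miR-144-3p at 0.38 with quantile scaling, 0.24 with normexp and 0.47 with the mean of probes, and for miR-486a-5p minus miR-144-3p at 0.48, 0.32 and 0.53. With the replicate block these were 0.43 and 0.53, where permutation within replicate number cannot go below an exact p of 0.0556 (adjusted p = 0.0833). The block changed no limma call of a member. Quantile scaling gave −0.023 for miR-451a minus miR-144-3p between stages.

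Leaving out each array gave these ranges. Over both stages miR-451a ran from 0.054 to 0.37 and miR-486a-5p from 0.25 to 0.37. At E17.5 miR-451a ran from −0.094 to 0.19. At E16.5 miR-451a ran from 0.062 to 0.68, miR-144-3p from −0.45 to 0.16 and miR-486a-5p from 0.28 to 0.52. The interaction of miR-144-3p ran from −0.45 to 0.16. Between stages in cKO miR-451a ran from −0.066 to 0.099 and miR-144-3p from −0.021 to 0.11, and in WT miR-144-3p from −0.12 to 0.49 and miR-486a-5p from −0.19 to 0.052. By genotype, miR-451a minus miR-144-3p ran from 0.40 to 0.47 and miR-486a-5p minus miR-144-3p from 0.40 to 0.64, with adjusted p up to 0.0857, though the exact p of the first stayed at 0.0286 while that of the second reached 0.0571, and miR-451a minus miR-486a-5p from −0.24 to 0.032. Between stages miR-451a minus miR-144-3p ran from −0.026 to 0.18.

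Over all miRNAs, increases over both stages numbered 177 and decreases 56, and across the alternatives 6 to 185 and 40 to 256. Increases made up 76.0% of calls, against 69.3% (quantile), 67.2% (median), 12% (all probes), 9.52% (unscaled) and 2.66% (control probes). Across the alternatives the calls at E17.5 were 3 to 145 higher and 32 to 296 lower, and at E16.5 4 to 162 and 17 to 109. Signal was nearest to background for miR-486a-5p.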
